A study of Mus musculus with 8 samples.

Results

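Lysosome and autophagy genes were followed in liver sinusoidal endothelial cells, the endothelium of the liver's capillaries, after an intravenous load of iron. The gene set was chosen by symbol, as 36 genes that encode lysosomal enzymes and membrane proteins, the lysosomal proton pump and the autophagy machinery. Of these, 34 had a target among the 23930 RefSeq targets of the assay, and all 34 passed the filter on low counts. *Map1lc3b* and *Gabarapl2* matched no target by accession and were not analysed here. The cells came from young wild-type female Balb/c mice, 1 mouse per library, and were sorted on a gate for dim CD45, high STAB2 and high CD146. Citrate buffer (0.05 M, 4 libraries) or iron citrate (150 µg, 4 libraries) had been injected 5 h earlier. No genotype or other treatment set the groups apart, per the labels. By its title the series concerns the control of *Bmp6* mRNA by iron through p38 and ETS1, and the genes described here lie outside that question.

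The lysosome is the acidic compartment in which cells degrade what they take up and what they enclose in autophagosomes. A proton pump, the vacuolar ATPase, keeps it acidic, and cathepsins and glycosidases do the degrading. Autophagosomes form around cargo that receptors such as p62 tether to lipid-bound proteins of the ATG8 family. Transcription factors of the MiT/TFE family, TFEB among them, switch on many of these genes through the CLEAR element in their promoters. Sinusoidal endothelium is known for its very high rate of scavenging from blood, which feeds the lysosome.

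Counts on targets ran from 7969520 to 11314659 per library. Levels are given as CPM, counts scaled to a common library size with edgeR's TMM factors. Iron citrate was compared with citrate buffer by edgeR's quasi-likelihood test over 14601 targets, and a gene was called at a Benjamini-Hochberg adjusted p under 0.05. Of the genes behind the sort gate, *Stab2* was between 879 and 1222 CPM and its groups overlapped. *Mcam*, which encodes CD146, was at 204, 255, 267 and 285 CPM after buffer and at 181, 165, 193 and 178 CPM after iron, with no overlap. Its log2 fold change was -0.50 (SE 0.14, edgeR adjusted p = 0.239). DESeq2, limma-voom and edgeR without citrate buffer replicate 1 called it lower (adjusted p = 0.00279, 0.00814 and 0.0135). *Ptprc*, which encodes CD45, was at 382 CPM in citrate buffer replicate 1 and from 135 to 208 CPM in the remaining 7. The part of these shifts in the results below was not tested. Citrate buffer replicate 1 stood apart, with a median correlation of 0.839 to its own group against 0.962 to 0.981 for the other 7 libraries. It also had 2.42% of its counts on 1286 targets of olfactory, vomeronasal, taste receptor and keratin-associated families. Citrate buffer replicate 2 had 0.983% there and the other 6 libraries 0.295% to 0.611%. The first of these libraries moved many of the values below, and the main ones are given with and without it.

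None of the 34 genes passed the test in all 8 libraries, against 0.555% of all targets (0.527% higher, 0.0274% lower). Before adjustment, edgeR gave a p under 0.05 to 7 of the 34, all higher and none lower, against 14.6% of all targets (6.57% higher). DESeq2 called 3, against 2.41% of all targets, and limma-voom with sample weights called 3, against 1.99%. The edgeR fit without citrate buffer replicate 1 also called 3, against 1.76%. The 3 were *Sqstm1*, *Gabarapl1* and *Ctsd* each time, all higher after iron citrate. Without citrate buffer replicates 1 and 2 edgeR called 2, *Sqstm1* and *Gabarapl1*, against 1.90%. With no low-count filter it called *Sqstm1* alone, against 0.375%. In the groups as deposited, every iron citrate library lay above every buffer library for 7 of the 34 genes, against 6.36% of all targets. No gene of the 34 lay wholly lower, against 2.29%.

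The 34 genes leaned upwards as a body, and the size of that lean depended on which buffer libraries were kept. The log2 fold change was above 0 for 30 of the 34, against 49.0% of all targets, and the median was 0.29, against -0.01 for all targets. Citrate buffer replicate 1 had the lowest of the 8 values for 29 of the 34 genes, against 36.6% of all targets. Without it the median was 0.12, against -0.04 for all targets, with 29 above 0. Without citrate buffer replicate 2, 3 or 4 alone the median was 0.26, 0.38 or 0.40, with 30, 31 or 32 above 0. Without citrate buffer replicates 1 and 2 together it was 0.01, the same as for all targets, with 17 above 0. The part of the 2 libraries' counts on silent families in this was not tested.

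**Figure D1:**
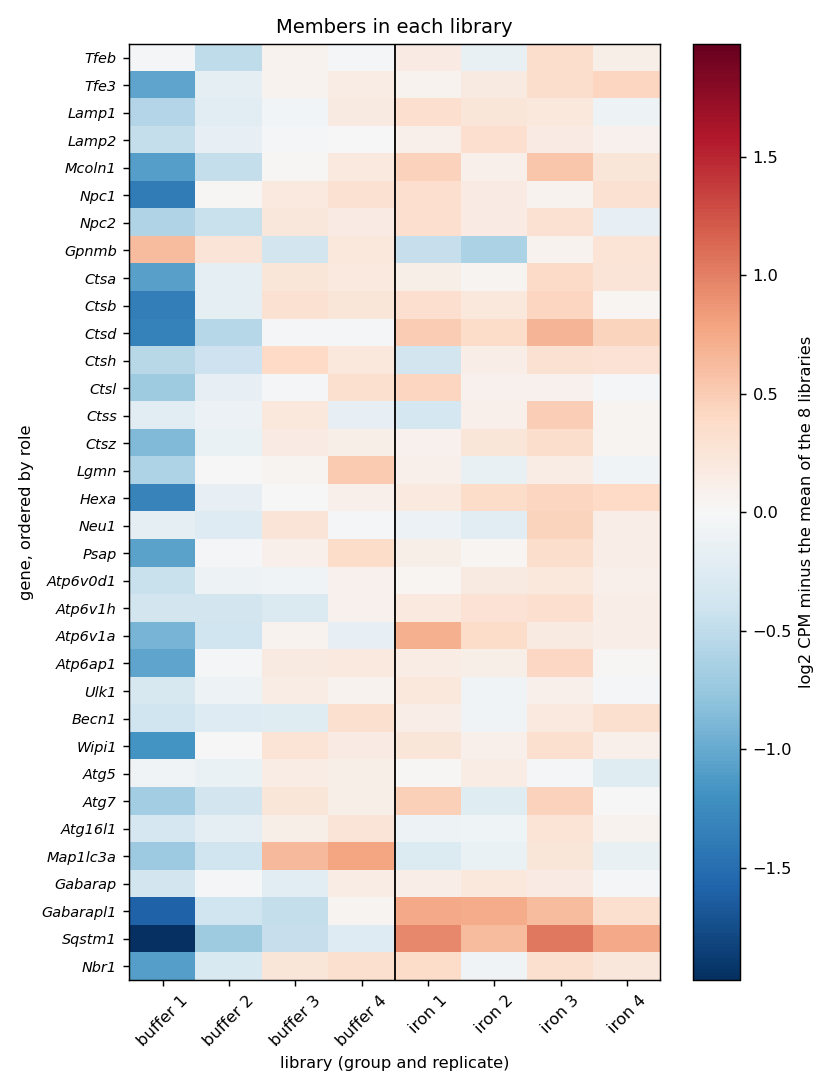
Each row is 1 of the 34 genes in order of role and each column 1 library; colour gives log2 CPM minus the gene's mean over the 8 libraries. Citrate buffer replicate 1 is the lowest of the 8 libraries for 29 genes, and *Gabarapl1* and *Sqstm1* are high in all 4 iron citrate libraries.

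The transcription factors *Tfeb* and *Tfe3*, which drive lysosomal and autophagy genes, did not pass. *Tfeb* stood at 36.5, 26, 38.7 and 36.4 CPM in buffer replicates 1 to 4 and at 41.1, 33.5, 47.1 and 39.9 CPM in iron citrate replicates 1 to 4. The groups overlapped, and the log2 fold change was 0.23 (SE 0.17, edgeR adjusted p = 0.45). *Tfe3* averaged 43.5 ± 13.9 CPM in the buffer libraries and 59 ± 6.52 CPM in the iron citrate libraries (SD, n = 4 each), with a log2 fold change of 0.44 (SE 0.23) that was 0.24 without citrate buffer replicate 1. Their relatives *Mitf* and *Tfec* belong to a wider list of nutrient sensing around TFEB. *Mitf* was low, between 3.05 and 7.04 CPM in the 8 libraries.

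*Tfec* was the only called gene among the 4 relatives. It stood at 206, 196, 217 and 217 CPM in the buffer libraries and at 383, 357, 347 and 415 CPM in the iron citrate libraries. The buffer libraries lay close together, citrate buffer replicate 1 included, and the groups did not overlap. *Tfec* rose 1.79-fold (log2 fold change 0.84, SE 0.12, edgeR adjusted p = 0.0107), and the log2 fold change was 0.84 without citrate buffer replicate 1 as well. The call held in 12 of 17 alternatives and was missed when any of citrate buffer replicates 2 and 3 and iron citrate replicates 1 and 4 was left out, and with the replicate number as a block (adjusted p up to 0.0826). *Tfec* is best known from macrophages. Of 13 Kupffer cell and macrophage markers 11 were tested, and none was called by edgeR, DESeq2 or limma-voom or had an unadjusted edgeR p under 0.05. For all targets these shares were 0.555%, 2.41%, 1.99% and 14.6%. Of the 11, 10 had log2 fold changes above 0, with a median of 0.54, which was 0.19 without citrate buffer replicate 1 and 0.20 without replicates 1 and 2. Their summed level was 748 to 1016 CPM after buffer and 669 to 1179 CPM after iron, most of it *Lyz2*. Without *Lyz2* it was 63.8, 249.8, 339.8 and 318 CPM after buffer and 293, 437, 579 and 212 CPM after iron, with citrate buffer replicate 1 the lowest and the groups overlapping.

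The 7 dendritic cell markers summed to 378 to 409 CPM after buffer and 503 to 531 CPM after iron. That gap lay in *Clec9a* (197 ± 22 and 333 ± 4.4 CPM, SD, n = 4 each, edgeR adjusted p = 0.0221), the called member. Without it the sums were 169.5 to 209 and 169 to 197 CPM, which overlapped. Of the 7, 3 had log2 fold changes above 0, *Clec9a* (0.76), *Siglech* (0.69) and *Zbtb46* (0.08). The first 2 of these had an unadjusted edgeR p under 0.05. The other 4 were below 0, *Flt3* (-0.60), *Xcr1* (-0.54), *Cd209a* (-0.38) and *Itgax* (-0.03). Without citrate buffer replicate 1 the 3 were 0.74, 0.62 and -0.14, and the 4 were -0.30, -0.22, -0.19 and 0.15. Genes of these lists and the sums without a gene were chosen after their values were seen. The part of either cell type in the *Tfec* result was not tested, and in sorted bulk cells fewer cells of a type and less RNA per cell cannot be told apart.

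**Figure D2:**
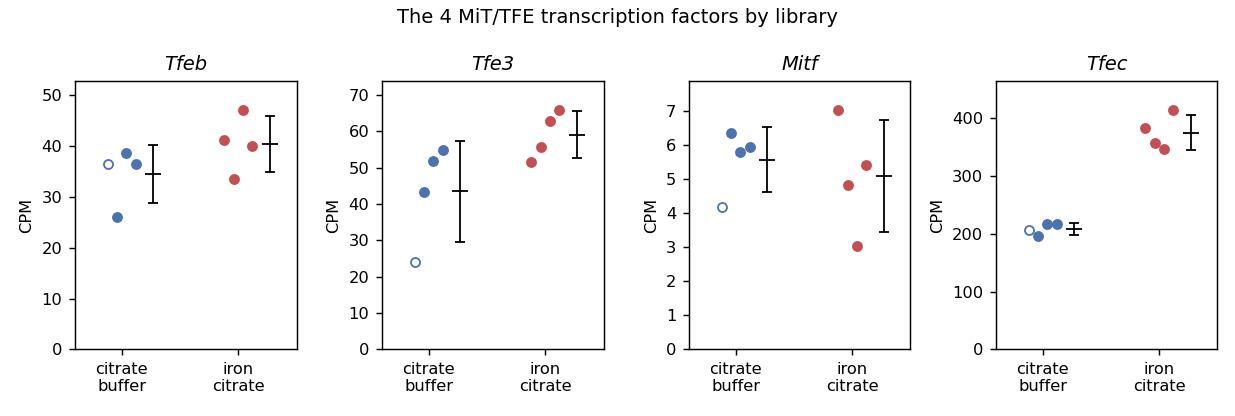
CPM of the 4 MiT/TFE factors in each library, with the mean ± SD of 4 libraries per group; the open circle is citrate buffer replicate 1. *Tfec* is between 196 and 217 CPM in the buffer libraries and between 347 and 415 CPM in the iron citrate libraries, while the groups overlap for *Tfeb*, *Tfe3* and *Mitf*.

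Promoter sequences from RefSeq (GRCm38.p6) were read to show which of these genes carry the letters that TFEB and NRF2 recognise, NRF2 being the factor of the oxidative stress response. Windows of 250 bases before to 50 bases after a start site were available for 29 of the 36 genes. CACGTGAC, the core of the CLEAR element, was in a window of 7 of them on either strand, against 2.55% of 27025 genes in the table. The 7 were *Atg7*, *Atp6v0d1*, *Ctsa*, *Ctsd*, *Lamp1*, *Lgmn* and *Mcoln1*. TGACNNNGC, the core of the antioxidant response element bound by NRF2, was in a window of 6, against 13.99% of genes. These were *Atp6v1a*, *Ctsd*, *Ctsz*, *Hexa*, *Map1lc3b* and *Psap*. CACGTG, the E-box that the CLEAR core contains, was in 10 of the 29, against 8.09% of genes. A match is a string of letters and not a measured site.

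The stretches below were chosen to show such matches beside the values that follow, with each match in capitals. They are written 5′ to 3′ on the gene's strand, numbered with the base before the start site as -1. *Ctsd* carries 1 CLEAR core and 2 antioxidant response cores in a stretch that ends at -36, and another CLEAR core upstream of it at -245 (chr7:142387863-142387932, minus strand). *Mcoln1* carries 2 CLEAR cores from -80 to -31 (chr8:3500439-3500488, plus strand), and *Lamp1* 4 E-boxes, the third of them within a CLEAR core, from -66 to -5 (chr8:13159095-13159156, plus strand). *Atp6v1a* (chr16:44139280-44139319, minus strand) and *Tfec* (chr6:16898462-16898501, minus strand) each carry 1 antioxidant response core from -60 to -21. *Sqstm1* has none of the 3 strings in its window, and its last 120 bases before the start (chr11:50210821-50210940, minus strand) are shown in lower case.
Ctsd: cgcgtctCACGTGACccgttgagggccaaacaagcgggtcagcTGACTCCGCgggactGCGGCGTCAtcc
Mcoln1: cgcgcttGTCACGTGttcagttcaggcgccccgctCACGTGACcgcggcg
Lamp1: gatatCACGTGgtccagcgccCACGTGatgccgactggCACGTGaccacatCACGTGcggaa
Atp6v1a: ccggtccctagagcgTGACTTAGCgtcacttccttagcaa
Tfec: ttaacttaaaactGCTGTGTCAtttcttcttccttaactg
Sqstm1: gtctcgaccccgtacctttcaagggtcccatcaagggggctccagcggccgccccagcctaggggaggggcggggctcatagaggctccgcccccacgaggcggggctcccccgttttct

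The 7 measured genes with a CLEAR core had a median log2 fold change of 0.32, with 6 above 0, and the 20 measured genes without one in their window had a median of 0.28, with 18 above 0. The 5 measured genes with an antioxidant response core had a median of 0.60, from 0.23 to 0.91, with 5 above 0. The 22 without one had a median of 0.28, from -0.36 to 1.56, with 19 above 0. Without citrate buffer replicate 1 the medians were 0.18 with and 0.12 without a CLEAR core, and 0.37 with and 0.13 without an antioxidant response core. Without replicates 1 and 2 they were 0.11 and 0.02, and 0.30 and 0.01. The gene with the highest value, *Sqstm1*, was among those without a match in the window. Sequence outside the windows was not read, and the part of either core in these fold changes was not tested.

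Among the membrane proteins, *Lamp2*, which lines the lysosome and serves as receptor of chaperone-mediated autophagy, had groups that did not overlap. Its values were 647, 799.6, 875 and 897 CPM after buffer and 965, 1132, 1005 and 951 CPM after iron. The log2 fold change was 0.33 (SE 0.15, edgeR adjusted p = 0.333), and 0.24 without citrate buffer replicate 1. *Lamp1*, the other main glycoprotein of the lysosomal membrane, was at 895 ± 192 and 1114 ± 138 CPM (SD, n = 4 each), and its groups overlapped (log2 fold change 0.32, SE 0.18, and 0.19 without citrate buffer replicate 1).

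*Mcoln1*, the calcium and iron channel of the lysosome, was at 41.2, 62.7, 88.5 and 99.5 CPM after buffer and at 119, 93.8, 127 and 103 CPM after iron. Only iron citrate replicate 2 lay below the highest buffer library. The log2 fold change was 0.60 (SE 0.25, edgeR adjusted p = 0.333), and 0.41 without citrate buffer replicate 1. *Npc1* and *Npc2*, which pass cholesterol out of the lysosome, had log2 fold changes of 0.30 (SE 0.30) and 0.29 (SE 0.21). These were 0.04 and 0.16 without citrate buffer replicate 1, and -0.03 and -0.02 without replicates 1 and 2. *Gpnmb*, a glycoprotein of stressed lysosomes and of phagocytes, lay between 1.04 and 2.48 CPM in all libraries, and its lowest library had 9 counts.

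Cathepsin D, *Ctsd*, an aspartic protease, had the highest log2 fold change of the 7 cathepsins. It was at 981, 1687, 2406 and 2409 CPM after buffer and at 3528, 3185, 3953 and 3358 CPM after iron. Every iron citrate library lay above every buffer library, and citrate buffer replicates 1 and 2 were the lowest. The mean was 1.87-fold higher after iron, with a log2 fold change of 0.91 (SE 0.27, edgeR adjusted p = 0.283). Without citrate buffer replicate 1 it was 0.69 (SE 0.15, edgeR adjusted p = 0.0304), and without replicates 1 and 2 it was 0.54 (adjusted p = 0.0621). DESeq2 and limma-voom called it (adjusted p = 0.0414 and 0.0283). *Ctsd* was called in 3 of 17 alternatives, with an edgeR adjusted p of up to 0.595 in the others.

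For the other 6 cathepsins and legumain the groups overlapped. The cysteine proteases *Ctsb* and *Ctsl* were at 1504 ± 632 and 2748 ± 769 CPM after buffer and at 1949.9 ± 219 and 3269 ± 470.0 CPM after iron (SD, n = 4 each). Their log2 fold changes were 0.37 (SE 0.31) and 0.25 (SE 0.22), and 0.12 and 0.09 without citrate buffer replicate 1. The cysteine proteases *Ctsh*, *Ctss* and *Ctsz* and the carboxypeptidase *Ctsa* had log2 fold changes of 0.14 to 0.32, and of 0.01 to 0.13 without that library. *Lgmn*, the asparaginyl endopeptidase that processes cathepsins, was at 751 ± 231 and 731 ± 72 CPM, with a log2 fold change of -0.04 (SE 0.22, edgeR adjusted p = 0.939, and -0.20 without that library).

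Of the other hydrolases, *Hexa*, the alpha subunit of beta-hexosaminidase, had groups that did not overlap. It was at 64.5, 143, 159.8 and 172 CPM after buffer and at 183, 205, 216 and 211 CPM after iron. The log2 fold change was 0.60 (SE 0.26, edgeR adjusted p = 0.333) and, without citrate buffer replicate 1, 0.37 (adjusted p = 0.175). The sialidase *Neu1* was between 52.5 and 85.2 CPM in all libraries, with a log2 fold change of 0.13 (SE 0.18), and 0.08 without citrate buffer replicate 1. *Psap*, the precursor of the saposins that help degrade sphingolipids, had a log2 fold change of 0.23 (SE 0.26), which was 0.00 without citrate buffer replicate 1. Over the 11 cathepsins and hydrolases the median was 0.25, and it was 0.11 without citrate buffer replicate 1 and -0.02 without replicates 1 and 2.

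Among 39 tested hydrolases outside the 34 genes, none was called by edgeR, against 0.555% of all targets. Before adjustment (p under 0.05) 3 were higher, against 6.57% of all targets, and 1 was lower. DESeq2 and limma-voom called 1 each, against 2.41% and 1.99% of all targets. That gene was *Asah1*, acid ceramidase, named after its values were seen. It stood at 78.3, 101, 107 and 108 CPM after buffer and at 153, 144, 164 and 143 CPM after iron, with no overlap. Its log2 fold change was 0.62 (SE 0.14, edgeR adjusted p = 0.125, and 0.0305 without citrate buffer replicate 1). *Tpp1*, a peptidase that removes tripeptides and an abundant member of the list, had a log2 fold change of 0.12 (SE 0.14). The list's median was 0.14, and it was 0.05 without citrate buffer replicate 1 and 0.02 without replicates 1 and 2.

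Of 22 tested lysosomal membrane proteins outside the 34, none was called by edgeR, against 0.555% of all targets. At an unadjusted p under 0.05, 2 were higher, against 6.57% of all targets, and none lower. The median was 0.16, with 15 above 0, against -0.01 and 49.0% for all targets. The median was -0.02 without citrate buffer replicate 1, with 10 of 22 above 0, and -0.04 without replicates 1 and 2. DESeq2 called none and limma-voom 1, against 2.41% and 1.99% of all targets. The 1 was the tetraspanin *Cd63*, named after its values were seen. It was at 60.3 ± 9.71 and 86.6 ± 12.1 CPM (SD, n = 4 each), with a log2 fold change of 0.52 (SE 0.16, edgeR adjusted p = 0.292, and 0.0293 without citrate buffer replicate 1). The most abundant of the list, *Laptm4a* and *Lamtor3*, had log2 fold changes of 0.07 and 0.26, and of -0.10 and 0.18 without that library.

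The 4 subunits of the proton pump lay on the same side. All 4 had log2 fold changes above 0, with a median of 0.37, which was 0.29 without citrate buffer replicate 1 and 0.23 without replicates 1 and 2. *Atp6v1a*, the catalytic subunit that hydrolyses ATP, was at 36.8, 52.6, 72.8 and 62.1 CPM after buffer and at 113, 89.4, 78.5 and 75.6 CPM after iron. The groups did not overlap, and the log2 fold change was 0.67 (SE 0.22, edgeR adjusted p = 0.333). *Atp6v1h*, a subunit that regulates the pump, was at 31, 31, 32.7 and 42.4 CPM after buffer and at 45.4, 48.6, 50.1 and 43.8 CPM after iron. Here too the groups did not overlap (log2 fold change 0.46, SE 0.14, edgeR adjusted p = 0.322). *Atp6v0d1*, of the membrane sector, and the accessory *Atp6ap1* had log2 fold changes of 0.25 (SE 0.13) and 0.28 (SE 0.25). Without citrate buffer replicate 1 the 4 were 0.51, 0.41, 0.16 and 0.07, in the order given.

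Of the pump's other subunits none of 13 tested was called by edgeR, DESeq2 or limma-voom, against 0.555%, 2.41% and 1.99% of all targets. By edgeR 6 were higher at an unadjusted p under 0.05, against 6.57% of all targets, and 1 was lower. In 5 of the 13 every iron citrate library lay above every buffer library, against 6.36% of all targets. These 5 were *Atp6v0a1*, *Atp6v0b*, *Atp6v1b2*, *Atp6v1c1* and *Atp6v1d*, with log2 fold changes of 0.40 to 0.69, listed here after their values were seen. *Atp6v0a1*, of the membrane sector, was at 127, 234, 245 and 257 CPM after buffer and at 318, 364, 357 and 296 CPM after iron (edgeR adjusted p = 0.333). *Atp6ap2*, the other of the 2 most abundant, had a log2 fold change of 0.41. The list's median was 0.25, and 0.21 and 0.13 without the 1 or 2 buffer libraries.

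**Figure D3:**
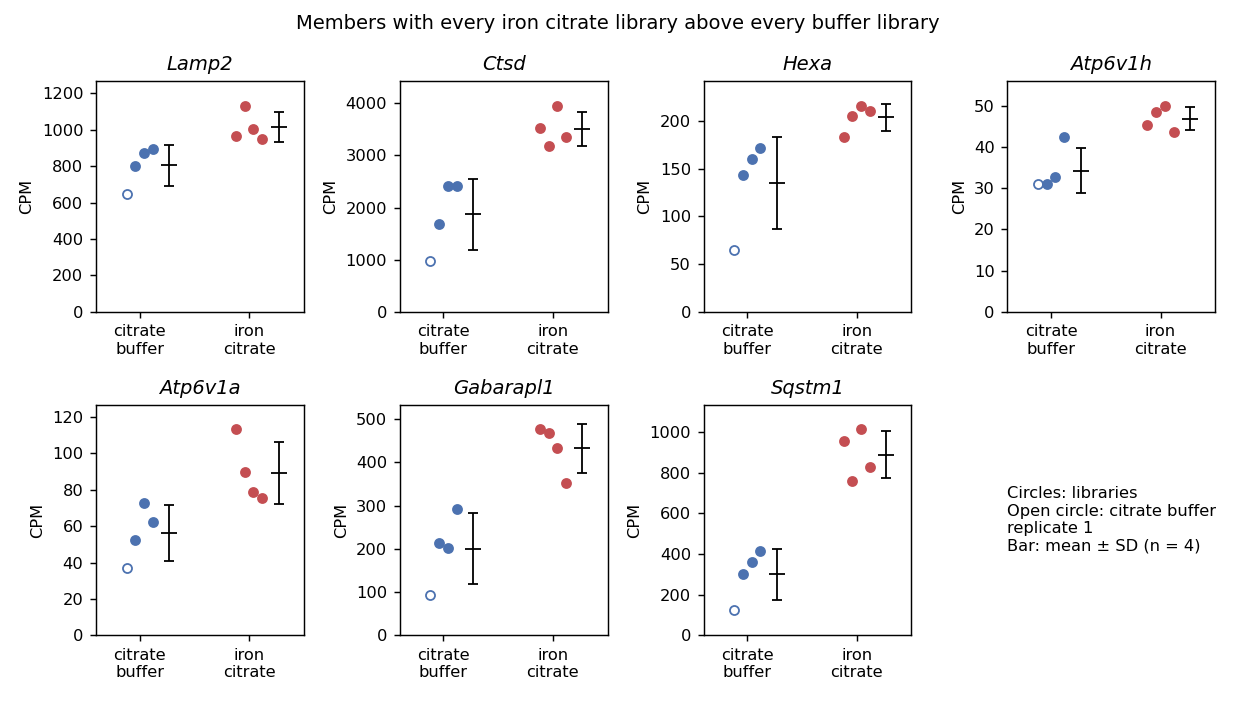
CPM in each library of the 7 genes for which every iron citrate library lay above every buffer library, with the mean ± SD of 4 libraries per group; the open circle is citrate buffer replicate 1. That library is the lowest for each of the 7, and *Sqstm1*, at 125 to 413 CPM after buffer and 757 to 1012 CPM after iron, has the widest gap between the groups relative to its level.

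For the core machinery that starts autophagosomes and conjugates ATG8 proteins the groups overlapped in all 6 genes. The kinase *Ulk1*, which starts autophagy, was at 93 ± 12.9 and 99 ± 8.8 CPM (SD, n = 4 each, log2 fold change 0.09, SE 0.14). *Becn1*, of the lipid kinase complex, and *Wipi1*, which binds its product, had log2 fold changes of 0.27 (SE 0.17) and 0.28 (SE 0.27). *Atg5* and *Atg16l1*, which form the complex that lipidates ATG8 proteins, had log2 fold changes of -0.03 (SE 0.14) and 0.07 (SE 0.16). *Atg7*, the enzyme that activates ATG8 and ATG12, had one of 0.33 (SE 0.24), and the 6 edgeR adjusted p-values lay between 0.402 and 0.909. Without citrate buffer replicate 1 the log2 fold changes of *Ulk1*, *Becn1* and *Wipi1* were 0.01, 0.19 and 0.04. Those of *Atg5*, *Atg16l1* and *Atg7* were -0.07, -0.02 and 0.18. Of 28 other tested genes of the machinery none was called by edgeR, DESeq2 or limma-voom, against 0.555%, 2.41% and 1.99% of all targets. At an unadjusted p under 0.05 none of the 28 was higher, against 6.57% of all targets, and 1 was lower. Their median was 0.15, and 0.00 without citrate buffer replicate 1, and the most abundant, *Atg4b* and *Wdr45*, had log2 fold changes of 0.18 and 0.04, and of -0.06 and -0.04 without that library.

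Within the ATG8 family, whose lipid-bound forms coat the autophagosome, *Gabarapl1* was the 1 of 3 measured genes whose groups did not overlap. *Gabarapl1* was at 92.9, 214, 203 and 293 CPM after buffer and at 476, 468, 434 and 352 CPM after iron. The groups did not overlap, and the mean was 2.15-fold higher after iron (log2 fold change 1.11, SE 0.29, edgeR adjusted p = 0.217). Without citrate buffer replicate 1 it was 0.87 (SE 0.16, edgeR adjusted p = 0.00791), and without replicates 1 and 2 it was 0.80 (adjusted p = 0.012). DESeq2 and limma-voom called it (adjusted p = 0.0199 and 0.00457). *Gabarapl1* was called in these 4 of 17 alternatives only, with an edgeR adjusted p of up to 0.536 in the others.

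*Gabarap*, its close relative, was at 1729.7 ± 265 and 2026 ± 138 CPM (SD, n = 4 each), and its groups overlapped (log2 fold change 0.23, SE 0.15, edgeR adjusted p = 0.421). *Map1lc3a*, which encodes LC3A, was at 9.83 ± 4.74 and 8.09 ± 1.3 CPM (log2 fold change -0.28, SE 0.38, and -0.49 without citrate buffer replicate 1). These genes are related in sequence, so reads could be shared between their targets to an extent that the counts do not show.

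The cargo receptor *Sqstm1*, which encodes p62, gave the largest difference of the 34 genes. It stood at 125, 303, 360.1 and 413 CPM in buffer replicates 1 to 4 and at 953, 757, 1012 and 827 CPM in iron citrate replicates 1 to 4. The lowest iron citrate library was above the highest buffer library by a wide margin. The mean was 2.95-fold higher after iron, with a log2 fold change of 1.56 (SE 0.32) and an edgeR adjusted p of 0.0888. Without citrate buffer replicate 1 the log2 fold change was 1.31 (SE 0.15, edgeR adjusted p = 0.000158), and without replicates 1 and 2 it was 1.20 (adjusted p = 8.28e-05). DESeq2, limma-voom and edgeR without a low-count filter called it too (adjusted p = 0.000234, 0.000265 and 0.0299). These made 5 of 17 alternatives, and edgeR with other scaling or a mean CPM of at least 5 did not call it. With the replicate number as a block or any other single library left out it was not called (adjusted p between 0.0692 and 0.338), at log2 fold changes of 1.49 to 1.76.

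p62 binds ubiquitin and ATG8 proteins, and also KEAP1, the protein that holds NRF2 in check, and its gene is a known NRF2 target. *Gclm* and *Txnrd1*, known NRF2 targets picked with earlier results of these data known, had log2 fold changes of 3.73 and 3.37 in the same fit. Whether NRF2 had a part in the *Sqstm1* result was not tested. *Nbr1*, a receptor built like p62, was at 40.7, 70.1, 102 and 108 CPM after buffer and at 111, 82.5, 107 and 100.3 CPM after iron. Its groups overlapped (log2 fold change 0.33, SE 0.27, edgeR adjusted p = 0.514), and the log2 fold change was 0.11 without citrate buffer replicate 1 and -0.06 without replicates 1 and 2.

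**Figure D4:**
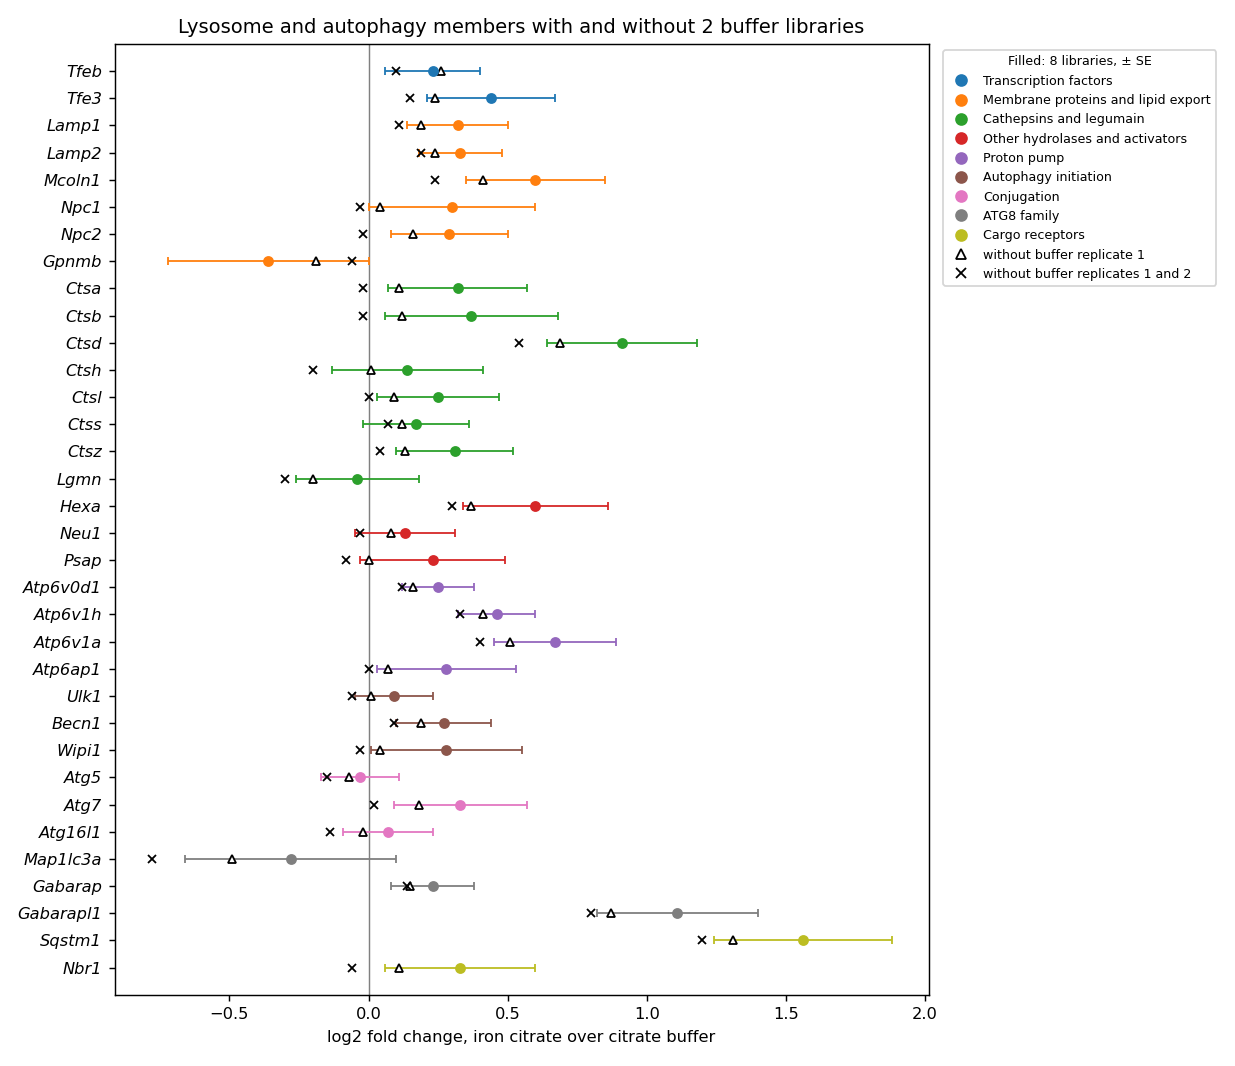
Log2 fold change of each of the 34 genes, coloured by role, with the SE in all 8 libraries (filled circles), without citrate buffer replicate 1 (triangles) and without replicates 1 and 2 (crosses). *Sqstm1* (1.56, 1.31 and 1.20), *Gabarapl1* (1.11, 0.87 and 0.80) and *Ctsd* (0.91, 0.69 and 0.54) lie to the right under all 3, while many others move towards 0.

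Ratios of 2 genes within a library do not depend on how that library is scaled. They were taken after the values were seen, and their size depends on the amplicons, so only libraries are compared. *Sqstm1* over *Nbr1* was 3.08, 4.32, 3.54 and 3.84 in the buffer libraries and 8.59, 9.18, 9.42 and 8.25 in the iron citrate libraries. Citrate buffer replicate 1 was close to its group here. *Gabarapl1* over *Gabarap* was 0.113 ± 0.0338 after buffer and 0.213 ± 0.0167 after iron (SD, n = 4 each), with no overlap. Here citrate buffer replicate 1, at 0.0644, lay well below the other buffer libraries, at 0.118 to 0.143. *Ctsd* over *Ctsb* was 1.54, 1.17, 1.2 and 1.25 after buffer and 1.72, 1.68, 1.81 and 2.01 after iron. In this ratio citrate buffer replicate 1 was the highest buffer library, below all 4 iron citrate libraries.

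**Figure D5:**
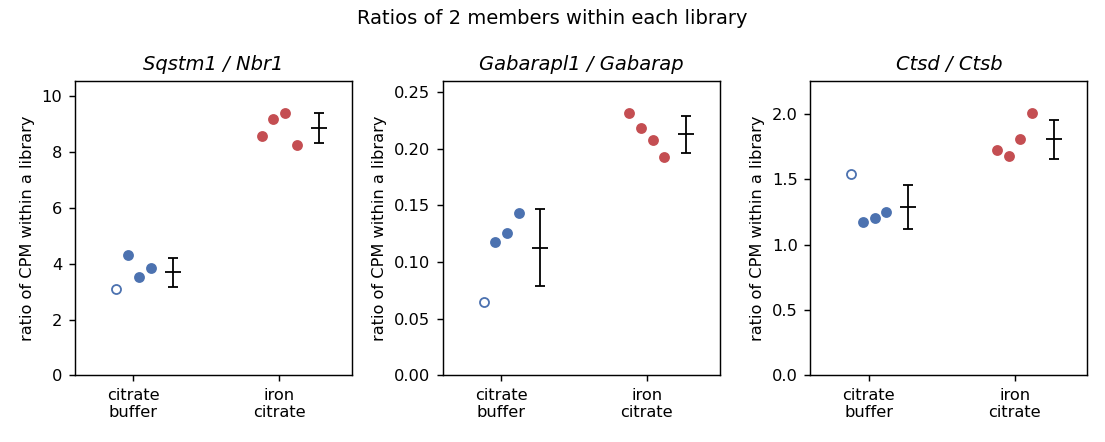
Ratio of the CPM of 2 genes within each library, with the mean ± SD of 4 libraries per group; the open circle is citrate buffer replicate 1. For all 3 ratios every iron citrate library lies above every buffer library, and *Sqstm1* over *Nbr1* goes from 3.08 to 4.32 after buffer to 8.25 to 9.42 after iron.

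Of 11 other tested cargo receptors and their regulators none was called by edgeR, against 0.555% of all targets. At an unadjusted p under 0.05, 3 were higher, against 6.57% of all targets, and none lower. DESeq2 and limma-voom called 1 each, against 2.41% and 1.99% of all targets. That gene was *Tbk1*, the kinase that phosphorylates p62 and other receptors, and it was also the most abundant of the list. It stood at 158, 207, 205 and 237 CPM after buffer and at 355, 331, 364 and 315 CPM after iron, with no overlap. The log2 fold change was 0.76 (SE 0.15, edgeR adjusted p = 0.0648), and the call was made in 7 of 17 alternatives. *Tollip*, the next most abundant, was at 150.2 ± 75.6 and 209 ± 28.6 CPM (SD, n = 4 each), with a log2 fold change of 0.48 (SE 0.38) that was 0.17 without citrate buffer replicate 1.

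Over all 6 wider lists 125 genes were tested and edgeR called 1, *Tfec*, against 0.555% of all targets. With upper-quartile factors, library totals or a mean CPM of at least 5 edgeR called 2, against 0.521%, 0.555% and 0.715% of all targets. The median log2 fold change of the 125 was 0.16, and 0.06 and 0.02 without the 1 or 2 buffer libraries.

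Other cell types of the liver have lysosomes too, and their markers were read beside these genes. The 12 sinusoidal endothelial markers summed to 20459 to 38936 CPM after buffer and 31092 to 35611 CPM after iron, with citrate buffer replicate 1 the lowest. *Clec4f*, which defines Kupffer cells, had its lowest value, 5.9 CPM, in citrate buffer replicate 1, and the remaining 7 libraries ranged from 25 to 94.1 CPM. Of the complement genes, *C1qb* was at 4.38 CPM in citrate buffer replicate 1 and from 28.1 to 82.5 CPM in the remaining 7 (log2 fold change 0.87, SE 0.56), and *C1qa* had no counts in 6 of the 8 libraries. *Vsig4*, another gene of Kupffer cells, was at 23 CPM in citrate buffer replicate 1 and from 79 to 202 CPM in the remaining 7. The 8 neutrophil markers summed to 457 CPM in citrate buffer replicate 1, to 131 to 182 CPM in the other buffer libraries and to 240.2 to 269 CPM after iron. Of 7 tested, edgeR and DESeq2 called none and limma-voom 2, *Retnlg* and *Csf3r*, against 0.555%, 2.41% and 1.99% of all targets. The median log2 fold change was -0.09. Without citrate buffer replicate 1 the median was 0.78, with 5 above 0, and edgeR called 4 higher, against 1.76% of all targets. These were *S100a8* (0.78), *S100a9* (0.82), *Retnlg* (1.23) and *Csf3r* (1.19), named after their values were seen (edgeR adjusted p = 0.0182, 0.0269, 0.00846 and 0.00425). The remaining tested markers, *Ngp*, *Camp* and *Ly6g*, were at 0.04, -0.38 and -0.67 without that library and were not called. Hepatocyte markers summed to 398 to 801 CPM after buffer and 327 to 671 CPM after iron, and stellate cell markers to 335 to 1049.6 and 746 to 1029 CPM. Lymphocyte markers summed to 389.6 to 593 and 414 to 448 CPM. The part of these cells in the values of the 34 genes was not tested.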

How the data were processed

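The authors deposited whole-number read counts per RefSeq target, 1 file per library, made from amplicon libraries (Ion AmpliSeq), per the labels. Each gene is read through a short amplicon, so a value describes part of a transcript. HTSeq 0.6.0 and DESeq2 1.18.1 are named in the submitters' processing notes, while the sources used here name no aligner and no build. HTSeq's summary lines, 2.15% to 4.6% of a file, were left out. Of the 23930 targets, 18128 took a symbol from the exact accession, 4324 from the accession stripped of its version and 110 from another table. The design text speaks of 5 samples per group, of which 4 per group were used here and the others were not analysed here.

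Counts were filtered with filterByExpr, scaled by TMM and tested with edgeR 4.0.16 in R 4.3.3 (robust quasi-likelihood F-test, Benjamini-Hochberg). SEs were derived from the F statistic. The test step was tested on simulated data. Alternatives used DESeq2 1.42.0 and limma 3.58.1, other scaling and filters, a replicate block and libraries left out. Genes named are the 34 with a target, called and the 2 most abundant genes of each wider list, and markers; others are said to be so. A gene that this rule names is not reported here. The gene set and the lists were chosen with earlier results of these data known. P-values cover only the spread among these samples, which may be partly technical, and PCR reads carry no molecular identifiers.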

Additional observations from a re-analysis of the deposited data

Results flagged for a closer look

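Dixon's gap test was applied to the 4 libraries of each group for the 34 genes and 6 others named (80 groups), and chance alone flags about 1 group in 20. It flagged 2, both in citrate buffer replicate 4. *Atp6v1h* was at 42.4 CPM there, against 31 to 32.7 CPM in the other buffer libraries. *Becn1* was at 104 CPM there, against 63.9 to 70.4 CPM in the other buffer libraries.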

How the results depend on the processing

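Over 17 alternatives, 535 of 577 log2 fold changes of the 34 genes kept their sign and call, 12 became called (*Sqstm1*, *Gabarapl1*, *Ctsd*) and 30, none called, changed sign. Of all targets 81 were called, and 352 with DESeq2, 290 with limma-voom, 43 with the replicate block, 281 without citrate buffer replicates 1 and 2, and 46 to 259 with 1 library left out (259 without citrate buffer replicate 1). Of the 34 genes 0 were called, and 3 with DESeq2, 3 with limma-voom, 1 with no low-count filter, 2 without citrate buffer replicates 1 and 2, and 0 to 3 with 1 library left out. Of the wider lists 1 was called, and 2 with library totals, with upper-quartile factors or with a mean CPM of at least 5, 4 with DESeq2 or limma-voom, 0 with the replicate block, 3 without citrate buffer replicates 1 and 2, and 0 to 4 with 1 library left out. Deviations of same-numbered libraries correlated at 0, 0.176, 0.609 and -0.315 for replicates 1 to 4, not above 0.1 in every pair, so the numbers were not taken as a pairing. Upper-quartile factors and library totals shifted the median of all targets to -0.12 and -0.11, and that of the 34 genes to 0.19 and 0.21.

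Sign changes without citrate buffer replicates 1 and 2 gave *Npc1* -0.03, *Npc2*, *Ctsa* and *Ctsb* -0.02, *Ctsh* -0.20, *Ctsl* -0.0016, *Neu1* -0.03, *Psap* -0.08, *Atp6ap1* -0.0021, *Ulk1* -0.06, *Wipi1* -0.03, *Atg16l1* -0.14 and *Nbr1* -0.06. With limma-voom *Ctsh* was -0.11, *Ctss* -0.02, *Neu1* -0.04 and *Atg16l1* -0.08. With upper-quartile factors and library totals *Ulk1* was -0.02 and -0.0024 and *Atg16l1* -0.04 and -0.02. *Lgmn* was 0.01 with the replicate block. With 1 library left out *Lgmn* ran from -0.20 to 0.16, *Neu1* from -0.01 to 0.24, *Atg5* from -0.09 to 0.03 and *Atg16l1* from -0.02 to 0.18. The cause was not tested, beyond fewer libraries where some were left out.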

Other observations

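Genes of nutrient sensing at the lysosome, which control where TFEB and TFE3 reside, were read as a wider list. That list also holds *Mitf* and *Tfec*, which are relatives of TFEB and not nutrient sensors. Of 12 tested, edgeR called only *Tfec*, higher, against 0.555% of all targets. For 3, *Tfec*, *Rragd* and *Fnip2*, the groups did not overlap, against 6.36% of all targets. *Rragd*, a GTPase that tethers mTORC1 to the lysosome, was at 2.38, 4.01, 5.43 and 4.37 CPM after buffer and at 8.6, 8.29, 7.46 and 9 CPM after iron. Its log2 fold change was 1.04 (SE 0.33, edgeR adjusted p = 0.321, DESeq2 adjusted p = 0.0196). *Fnip2*, a partner of folliculin, was at 14.3, 29.9, 33.7 and 38 CPM after buffer and at 51, 45.8, 44.5 and 45.2 CPM after iron. Its log2 fold change was 0.69 (SE 0.26, edgeR adjusted p = 0.333). *Flcn*, which encodes folliculin, had means of 179.6 ± 35.5 and 225 ± 34.5 CPM (SD, n = 4 each), and its groups overlapped. Without citrate buffer replicate 1 the log2 fold changes of *Rragd* and *Fnip2* were 0.85 and 0.46 (edgeR adjusted p = 0.161 and 0.114). The lowest library of *Rragd* had 25 counts. In the same list *Rraga*, *Rragb* and *Rragc* had log2 fold changes of -0.15, -0.72 and 0.46, none called by edgeR. *Rragd*, *Fnip2*, *Rraga*, *Rragb* and *Rragc* were named after their values were seen.

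Receptors of mitophagy, the removal of mitochondria by autophagy, were measured as well and are named after their values were seen. The kinase *Pink1* was at 39.7 ± 15.2 and 61.5 ± 14 CPM (log2 fold change 0.64, SE 0.28) and *Bnip3* at 12.6 ± 5.12 and 20.7 ± 3.87 CPM (0.72, SE 0.30), both with an edgeR adjusted p of 0.333. In both the groups overlapped, and citrate buffer replicate 1 was the lowest library.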
